A study of Homo sapiens with 192 samples.

Results

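The genes ACTB, ACTG1, ACTA2, TAGLN, MYL9, CNN1, TPM1, TPM2, VCL and SRF encode parts of the actin cytoskeleton and the transcription factor that controls many of them. They were chosen by name and matched by Ensembl identifier. This choice, and that of the other gene lists below, was made with earlier results of these data known. Counts of called genes beside the shares of all genes are therefore descriptions. The genes named above are 10 of the 58243 genes in the count files. Their RNA was measured in 2D and 3D growth of 4 colorectal cancer (CRC) lines, namely HT29, LS513, HCT116 and LS174T. CNN1 had at most 4 counts in any library, and the other 9 genes passed the filter on low counts and were tested.

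Actin filaments are built from monomers, and beta and gamma cytoplasmic actin (ACTB and ACTG1) are the isoforms of non-muscle cells, whereas ACTA2 encodes the alpha actin of smooth muscle. Tropomyosins (TPM1, TPM2) wind along the filament, transgelin (TAGLN) and calponin (CNN1) bind it, MYL9 encodes a regulatory light chain of myosin II, and vinculin (VCL) couples filaments to integrin and cadherin adhesions. Serum response factor (SRF) binds a short DNA element called the CArG box. It works with 2 kinds of partners, the MRTF coactivators, which are held in the cytoplasm by monomeric actin, and the ternary complex factors (TCF) of the ETS family, which respond to MAP kinase signaling.

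The 24 libraries fall into 8 groups of 3, 1 group in 2D growth and 1 in 3D growth for every line. All are established human CRC lines with no other treatment in the labels. Each line stands for 1 tumor, and HCT116 and LS174T are microsatellite instable whereas HT29 and LS513 are microsatellite stable. HCT116 was kept in McCoy medium and the other lines in DMEM, so for HCT116 line and medium cannot be told apart. The labels do not say whether the 3 libraries of a group came from separate cultures, so p-values measure the spread between these libraries, which may be technical.

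Library totals were between 18723942 and 34277421 counts, and 3 counts in a library correspond to between 0.0875 and 0.160 CPM, the counts relative to the library total on a per-million scale. Epithelial markers (EPCAM, CDH1, KRT8, KRT18, KRT20, CDX2) summed to between 2488 and 16814 CPM in every library. The summed smooth muscle markers (MYH11, DES, LMOD1, ACTG2, MYOCD, SYNPO2) reached at most 4.08 CPM, and MYOCD, the coactivator of SRF that defines smooth muscle, had 0 counts in all 24 libraries. Fibroblast markers summed to between 10.2 and 22.1 CPM in HCT116 and to at most 1.10 CPM in the other lines. Among them COL1A1 had counts in every library, at up to 21.8 CPM, and COL1A2 had 0 counts everywhere. The T cell marker CD3E was at 0 counts as well. Endothelial and immune markers summed to between 2.13 and 20.5 CPM in 2D and between 5.22 and 92.4 CPM in 3D and were higher in 3D in each line, with CD68 at up to 91.8 CPM and the leukocyte marker PTPRC at 2 counts or fewer, and their part in the results was not tested. All 6 proliferation markers were lower in 3D in the contrast averaged over the lines, with a median log2 fold change of -0.56. In all 4 lines short genes were higher and long genes lower in 3D. The median log2 fold change went from 0.30 for genes of up to 2000 exonic bases to -0.30 for genes over 8000 in HT29, from 0.17 to -0.13 in LS513, from 0.20 to -0.15 in HCT116 and from 0.29 to -0.23 in LS174T. Relative to short genes and to the group mean, long genes were lowest in LS174T 3D replicate 2 (-0.54 log2 units) and HCT116 2D replicate 3 (-0.32) and highest in LS174T 3D replicate 3 (0.40). Values with this length trend removed are given below where they change a result, and this correction was chosen after the data were seen.

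The promoter windows of SRF, ACTG1 and ACTA2 are shown because they carry the SRF element or its near matches. Of the 10 genes, 7 have a window in the RefSeq promoter table (GRCh38.p14), which runs from 250 bases before to 50 bases after a start site. A CArG box, searched on both strands, was found in the windows of SRF and ACTG1, and 1.29% of all 35116 windows hold one. With 1 mismatch allowed the share is 17.9%. The windows are written 5′ to 3′ on the strand of the gene, with CArG boxes in capitals for SRF and ACTG1 and matches with 1 mismatch in capitals for ACTA2.
SRF, chr6:43171019-43171318, plus strand: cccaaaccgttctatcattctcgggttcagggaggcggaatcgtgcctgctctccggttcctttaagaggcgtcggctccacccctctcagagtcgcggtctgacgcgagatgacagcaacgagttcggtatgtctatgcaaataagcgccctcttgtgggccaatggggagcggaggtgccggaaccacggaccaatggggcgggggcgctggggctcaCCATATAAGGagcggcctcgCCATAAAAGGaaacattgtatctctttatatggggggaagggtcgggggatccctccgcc
ACTG1, chr17:81512750-81513049, minus strand: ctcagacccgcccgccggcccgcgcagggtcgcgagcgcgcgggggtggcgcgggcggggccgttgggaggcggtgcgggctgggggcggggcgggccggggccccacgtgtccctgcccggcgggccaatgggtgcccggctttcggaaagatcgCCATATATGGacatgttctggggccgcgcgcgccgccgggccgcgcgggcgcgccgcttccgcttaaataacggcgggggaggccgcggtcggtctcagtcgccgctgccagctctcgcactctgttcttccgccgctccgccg
ACTA2, chr10:88952724-88953023, minus strand: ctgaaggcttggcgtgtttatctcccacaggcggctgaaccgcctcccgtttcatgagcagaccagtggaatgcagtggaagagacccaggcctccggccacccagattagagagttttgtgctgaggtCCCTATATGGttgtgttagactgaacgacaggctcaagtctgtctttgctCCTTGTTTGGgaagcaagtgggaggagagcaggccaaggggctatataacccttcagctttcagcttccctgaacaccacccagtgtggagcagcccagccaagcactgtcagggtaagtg
The CArG boxes begin at -30 and -10 in SRF and at -94 in ACTG1, and the near matches of ACTA2 begin at -121 and -71, counted from the start site. The SRF window also holds the ETS core CCGGAA, which occurs on either strand in 17.2% of all windows. No CArG box lies in these windows of CNN1, TPM1, TPM2 and VCL, which says only that the letters are not within them.

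Most of these genes changed in HT29, mainly downward, whereas fewer changed in LS513 and LS174T, all of them upward. In HT29, 7 of the 9 tested genes passed an adjusted p of 0.05, with TPM1 and TPM2 higher in 3D and ACTB, ACTG1, MYL9, VCL and SRF lower. Of all 19387 tested genes, 40.7% were called in HT29, 21.1% higher and 19.6% lower. In LS513, ACTB and ACTG1 were higher and no gene of the 9 was lower, against 23.6% of all genes called, 13.7% higher and 9.9% lower. In HCT116, ACTG1 was higher and TAGLN lower, against 29.1% of all genes called, 16.8% higher and 12.3% lower. In LS174T, ACTG1, ACTA2, TPM1 and TPM2 were higher and none was lower, against 22.2% of all genes called, 13.1% higher and 9.15% lower. Averaged over the 4 lines, ACTG1, TPM1 and TPM2 were higher and ACTB, MYL9 and VCL lower, where 50.5% of all genes were called, 26.6% higher and 23.9% lower. The libraries of the 2 growth conditions did not overlap for 7 genes in HT29, where this held for 52.9% of all tested genes. It was so for 4 genes in LS513 (42.9% of all), for 2 in HCT116 (40.4%) and for 5 in LS174T (38.5%). Less RNA per cell and fewer cells with the RNA cannot be told apart in these bulk samples.

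**Figure D1:**
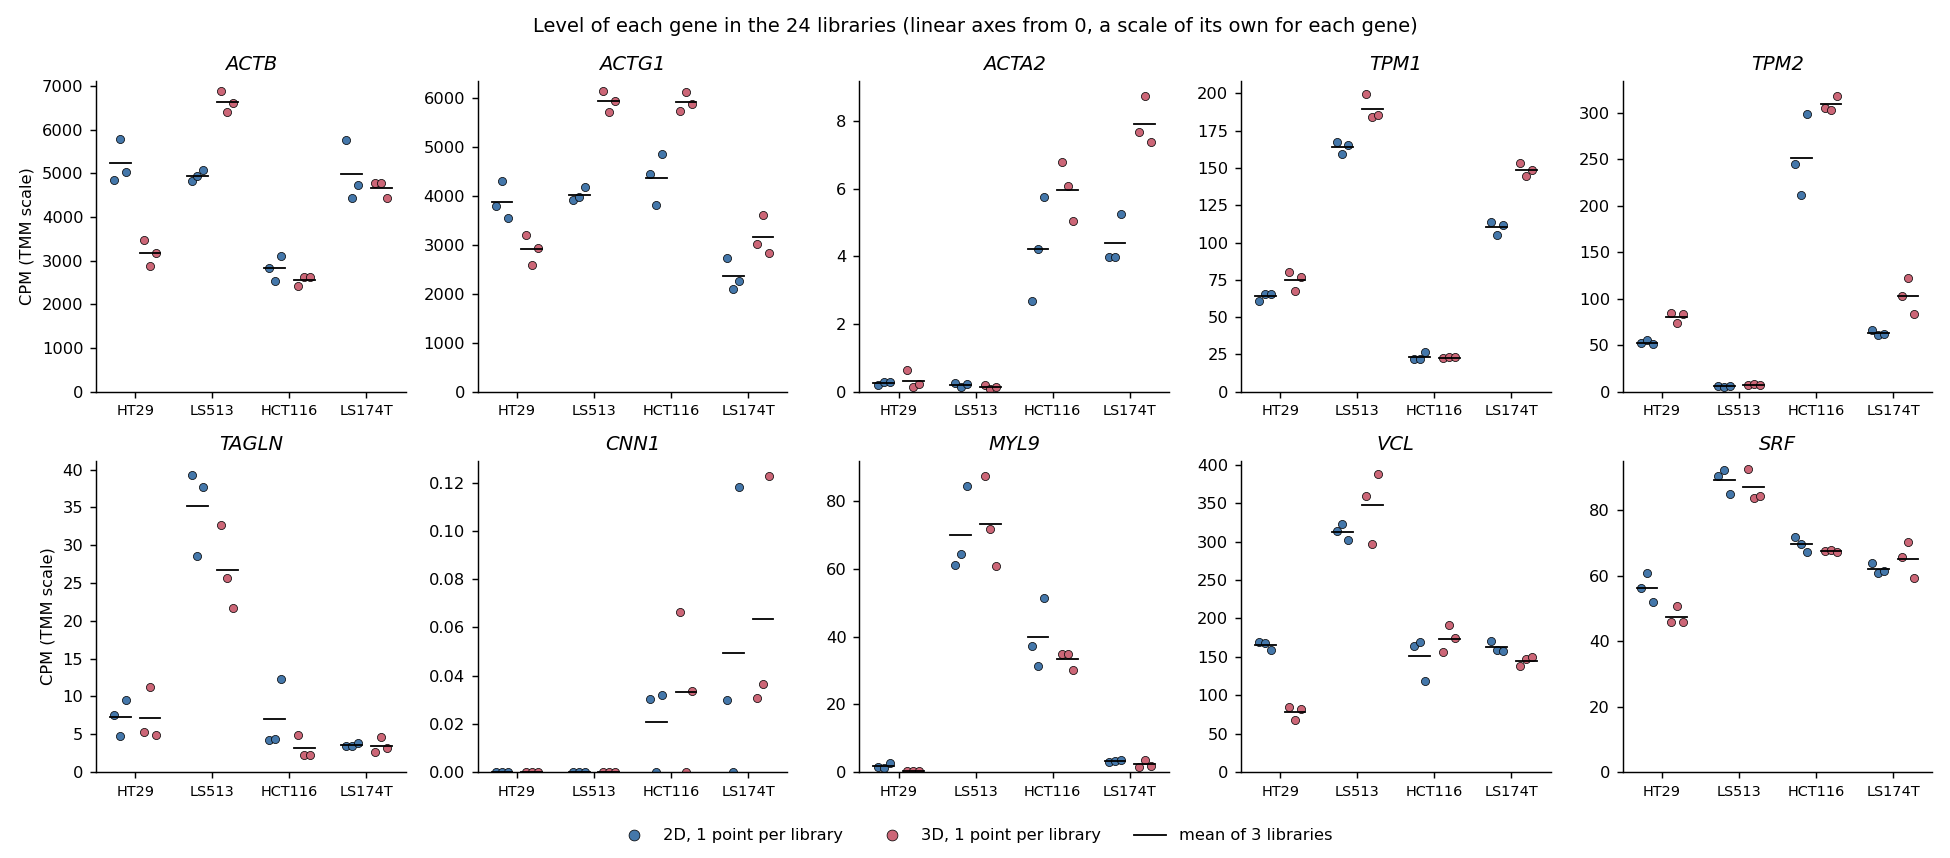
Level of each of the 10 genes in CPM on the TMM scale (vertical axis, linear from 0, with its own scale for each gene) in the 2D and 3D libraries of the 4 lines, 1 point per library, with a black line at the mean of 3 libraries. VCL, MYL9 and ACTB were lower in 3D in HT29, TPM2 was highest in HCT116 and lowest in LS513, and TPM1 was highest in LS513 and lowest in HCT116.

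The growth effect differed between the lines for 5 of the 9 genes, namely ACTB, ACTG1, MYL9, TPM1 and VCL, by the interaction test of edgeR, which called 17.1% of all genes. Of the 54 comparisons of a gene's growth effect between 2 lines, 14 passed the threshold, against 6.53% of such comparisons over all genes. HT29 accounted for 12 of the 14, since ACTB, ACTG1, MYL9 and VCL each differed there from all 3 other lines. The remaining calls were ACTB between LS513 and HCT116 and TPM1 between HCT116 and LS174T.

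**Figure D2:**
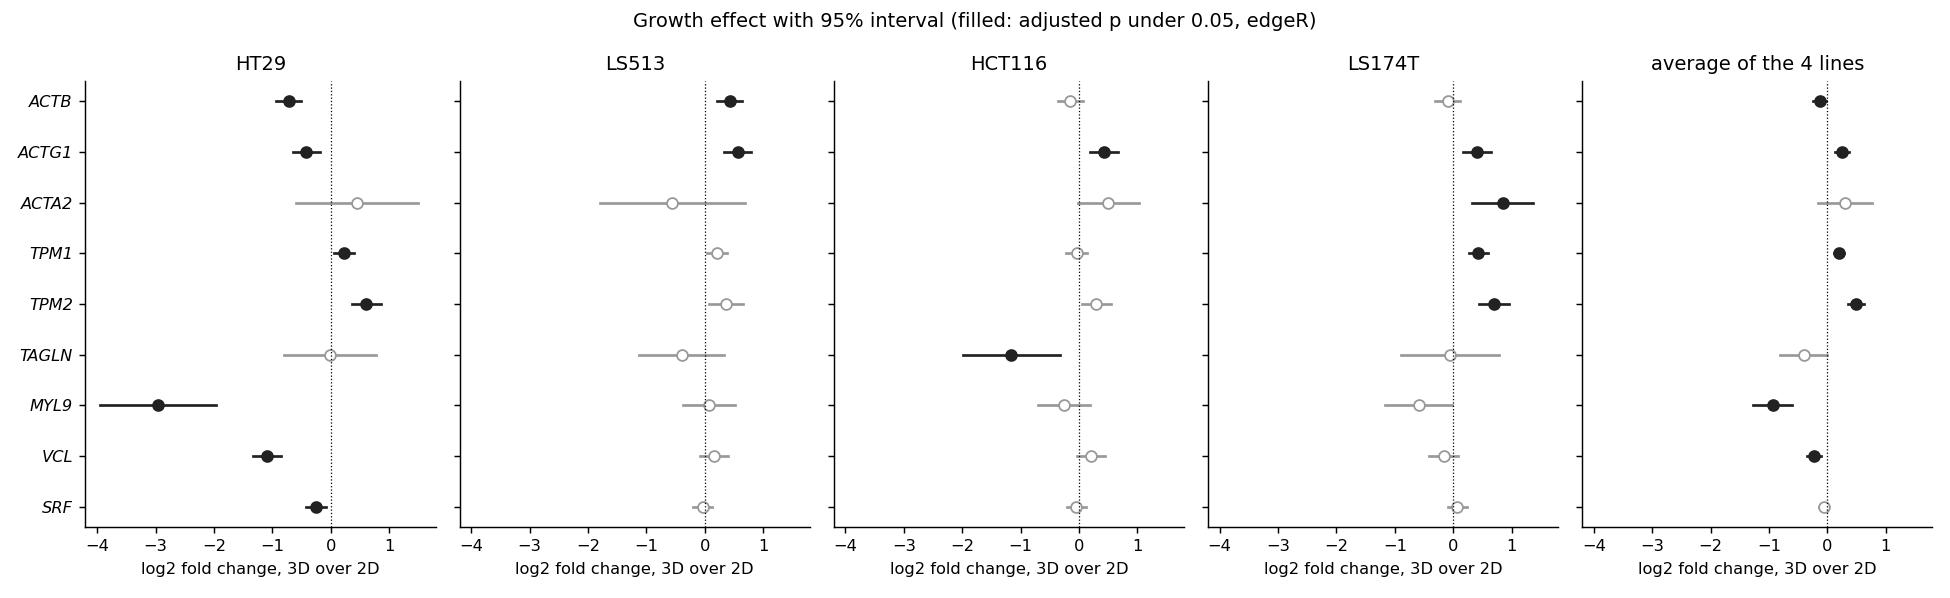
Log2 fold change of 3D over 2D (horizontal axis) for the 9 tested genes in each line and averaged over the lines, with 95% intervals, where filled points passed an adjusted p of 0.05. In HT29 5 genes were called lower, and in HCT116 TAGLN was. TPM2 lies to the right of 0 in every line and ACTG1 in every line but HT29.

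ACTB (chr7:5527147-5563784, GRCh38, minus strand) had, with ACTG1, by far the highest level per exonic length of the 10 genes. In HT29 it stood at 4854, 5790 and 5036 CPM in 2D and at 3483, 2877 and 3176 CPM in 3D. All 3 libraries of HT29 in 3D lay below all 3 in 2D, and ACTB fell by 0.72 on the log2 scale (SE 0.11, adjusted p = 1.43e-05). In LS513 the values were 4813, 4937 and 5083 CPM in 2D and 6887, 6395 and 6606 CPM in 3D. Here every 3D library lay above every 2D library, with a log2 fold change of 0.42 (SE 0.11, adjusted p = 0.00483). In HCT116 the means were 2826 ± 287 CPM in 2D and 2554 ± 121 CPM in 3D (SD, n = 3 here and below), with a log2 fold change of -0.15 and a 95% interval from -0.36 to 0.07. In LS174T they were 4976 ± 701 and 4661 ± 206 CPM, with a log2 fold change of -0.09 and an interval from -0.31 to 0.12. The growth effects of HT29 and LS513 differed by -1.14 log2 units (adjusted p = 1.01e-05). The averaged log2 fold change of -0.13 (adjusted p = 0.0368) combined lines that moved in opposite directions, and its call was lost with the size factors of DESeq2 (adjusted p = 0.0698). Reads that aligned more than once had been removed before counting, and 1.19% of the 75-base stretches of ACTB transcripts also occur in other genes, among them ACTBP2 and POTEE.

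ACTG1 (chr17:81509971-81523847, minus strand) was higher in 3D in every line but HT29. In LS513 it rose from 3909, 3979 and 4177 CPM in 2D to 6142, 5706 and 5937 CPM in 3D, a log2 fold change of 0.56 (SE 0.12, adjusted p = 0.00105). In HCT116 the 2D libraries had 4450, 3814 and 4850 CPM and the 3D libraries 5724, 6129 and 5880 CPM, a log2 fold change of 0.44 (adjusted p = 0.00664). In LS174T the 2D libraries had 2729, 2103 and 2268 CPM and the 3D libraries 3017, 3604 and 2828 CPM, a log2 fold change of 0.41 (adjusted p = 0.0140). The 2 growth conditions did not overlap in any of these lines. In HT29, ACTG1 stood at 3783, 4298 and 3541 CPM in 2D and at 3195, 2592 and 2936 CPM in 3D, again without overlap, and fell by 0.41 on the log2 scale (adjusted p = 0.00642). The HT29 call was lost without HT29 3D replicate 3 (adjusted p = 0.0785) or 2D replicate 2 (adjusted p = 0.0763), and the HCT116 call without HCT116 2D replicate 2 (adjusted p = 0.0559). The HT29 growth effect was the lower one against each other line, with differences of -0.97 from LS513, -0.85 from HCT116 and -0.83 from LS174T on the log2 scale. The call in LS174T was lost without LS174T 3D replicate 2 (log2 fold change 0.31, adjusted p = 0.0815), 2D replicate 2 (adjusted p = 0.0815) or 2D replicate 3 (adjusted p = 0.0598) and when the length trend was removed (0.29, adjusted p = 0.0550).

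The balance of the 2 cytoplasmic actins shifted toward ACTG1 in 3D in all 4 lines. Among the 6 actin genes and per exonic length, ACTB made up 53.4% ± 1.3 in HT29 in 2D and 48.2% ± 0.3 in 3D. The same share went from 51.1% ± 0.2 to 48.7% ± 0.1 in LS513, from 35.5% ± 0.5 to 26.8% ± 0.6 in HCT116 and from 64.1% ± 0.2 to 55.8% ± 2.4 in LS174T. In each line every 3D library lay below every 2D library, including HT29, where both genes fell. The exact permutation test of 3 libraries against 3 gives p = 0.1 in each line, the smallest value this design allows. ACTG1 supplied nearly all of the remainder, and ACTA2 made up at most 0.115% of the 6 genes in any library. Together ACTB and ACTG1 took 0.872% ± 0.068 of all counts in HT29 in 2D and 0.590% ± 0.056 in 3D. In LS513 their share was 0.896% ± 0.031 in 2D and 1.14% ± 0.05 in 3D, the highest of the 8 groups.

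**Figure D3:**
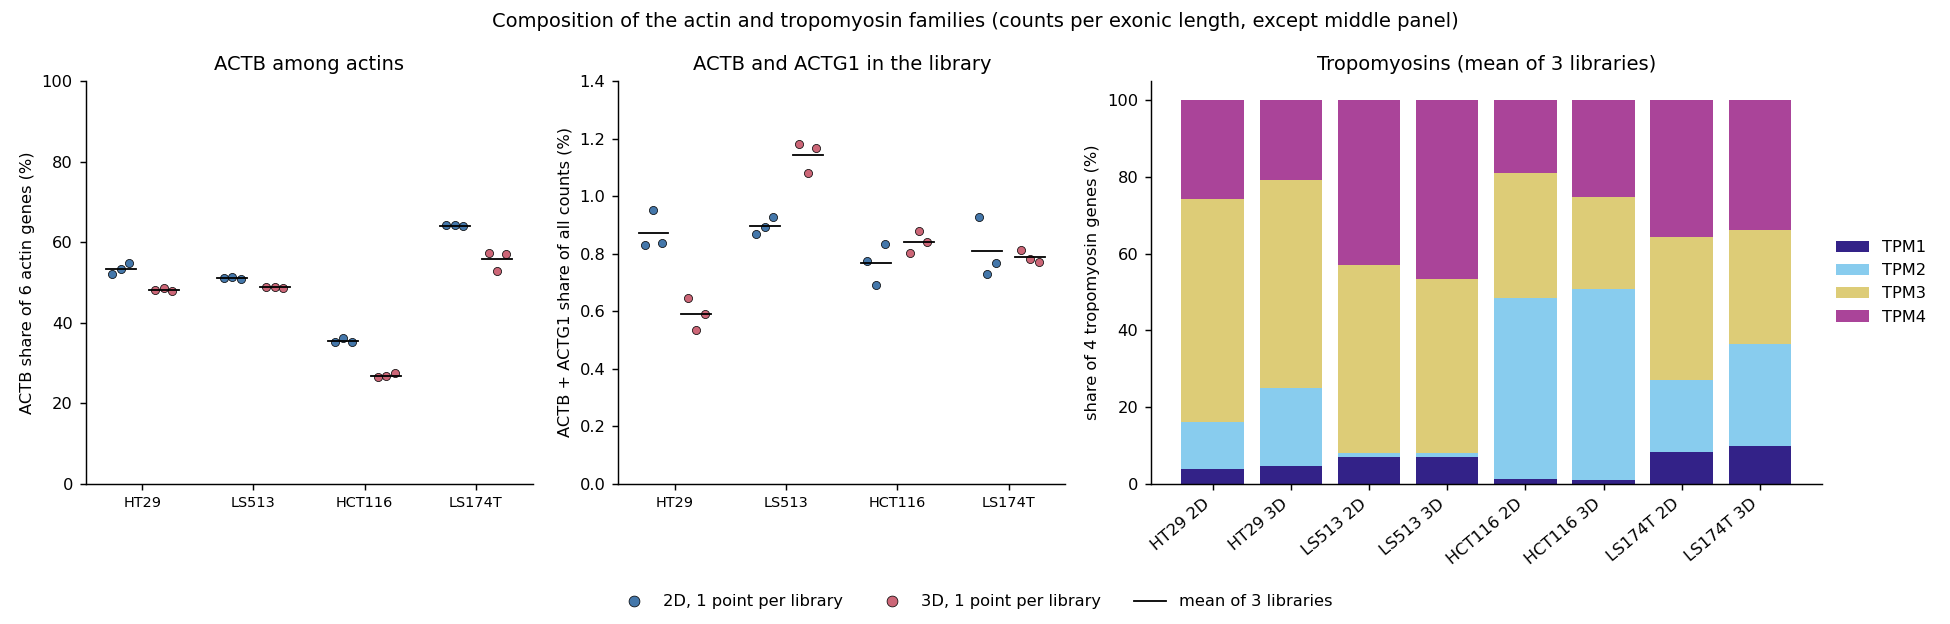
Left, share of ACTB among 6 actin genes per exonic length (percent) and middle, share of ACTB and ACTG1 in all counts (percent), with 1 point per library and the mean as a black line; right, mean shares of the 4 tropomyosin genes per exonic length (percent) in the 8 groups. The ACTB share was lower in 3D in each line, from 35.5% to 26.8% in HCT116, and TPM2 took 49.7% of the tropomyosins in HCT116 but 1.11% in LS513 grown in 3D.

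ACTA2 (chr10:88935074-88991339, minus strand) was detected at low levels and mainly in the microsatellite instable lines. In LS174T it stood at 3.98, 3.98 and 5.24 CPM in 2D and at 7.66, 8.75 and 7.37 CPM in 3D, from 133 to 250 counts per library. The 3D libraries lay above the 2D libraries, and the log2 fold change was 0.85 (SE 0.25, adjusted p = 0.0195). This call was lost when LS174T 3D replicate 2, 2D replicate 1 or 2D replicate 2 was left out, with log2 fold changes of 0.78 in each case and adjusted p = 0.0675, 0.0768 and 0.0781. In HCT116 the values were 2.69, 4.23 and 5.74 CPM in 2D and 6.78, 6.08 and 5.05 CPM in 3D, which overlapped, with a log2 fold change of 0.50 (adjusted p = 0.146). Without HCT116 2D replicate 3 it was 0.76 and called (adjusted p = 0.0397). HT29 and LS513 had between 2 and 21 counts per library and at most 0.633 CPM. Exons of ACTA2-AS1 and FAS on the opposite strand cover 30.1% of the exonic bases of ACTA2. The libraries were strand specific but the strand setting of the counting is not given in the sources used here. FAS stood at 22.2 ± 0.8 CPM in 2D and 20.2 ± 2.4 CPM in 3D in LS174T and at 19.7 ± 2.7 and 18.8 ± 1.0 CPM in HCT116. It was lower in HT29 (6.23 ± 0.45 and 4.53 ± 0.54 CPM) and LS513 (6.63 ± 0.85 and 6.53 ± 1.85 CPM), as ACTA2 was. ACTA2-AS1 had 1.43 ± 0.38 and 0.519 ± 0.189 CPM in LS174T, and 0.233 ± 0.065 and 0.088 ± 0.050 CPM in HCT116. The part of FAS and ACTA2-AS1 in the ACTA2 counts was not tested.

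TPM2 (chr9:35681992-35690121, minus strand) was the gene of the 10 whose 3D libraries lay above the 2D libraries in all 4 lines. In HT29 it went from 51.9, 55.1 and 50.9 CPM in 2D to 84.3, 73.8 and 83.1 CPM in 3D, a log2 fold change of 0.61 (SE 0.12, adjusted p = 0.000407). In LS174T the 2D libraries had 66.2, 60.6 and 62.2 CPM and the 3D libraries 102, 122 and 83.0 CPM, a log2 fold change of 0.70 (SE 0.12, adjusted p = 0.000306). In LS513 TPM2 was scarce, with 6.31, 5.14 and 6.49 CPM in 2D and 7.04, 8.28 and 7.62 CPM in 3D. In HCT116 it was abundant, with 245, 212 and 298 CPM in 2D and 305, 303 and 318 CPM in 3D. The log2 fold changes of 0.36 in LS513 (adjusted p = 0.0717) and 0.30 in HCT116 (adjusted p = 0.0659) missed the threshold. Averaged over the lines TPM2 rose by 0.49 log2 units (SE 0.06, adjusted p = 9.29e-07), and the interaction test did not detect a difference between lines (adjusted p = 0.238). The HCT116 value was called without HCT116 2D replicate 3 (log2 fold change 0.41, adjusted p = 0.0162).

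TPM1 (chr15:63042632-63071915, plus strand) rose in HT29 and LS174T. In LS174T the 2D libraries had 114, 105 and 112 CPM and the 3D libraries 154, 144 and 149 CPM, a log2 fold change of 0.43 (SE 0.08, adjusted p = 0.000719). In HT29 the values were 61.1, 65.8 and 65.3 CPM in 2D and 80.4, 67.4 and 77.2 CPM in 3D, a log2 fold change of 0.23 (adjusted p = 0.0297), a call that was lost without HT29 3D replicate 1 (adjusted p = 0.0809) or HT29 2D replicate 1 (adjusted p = 0.0521). In both lines the 3D libraries lay above the 2D libraries. LS513 showed 164 ± 4 CPM in 2D and 190 ± 8 CPM in 3D without overlap, with a log2 fold change of 0.21 (adjusted p = 0.0657). This LS513 value was called with DESeq2 (0.22, adjusted p = 0.0192) and with the line fitted alone (0.19, adjusted p = 0.0447). HCT116 had the lowest level, 23.5 ± 2.7 CPM in 2D and 22.9 ± 0.4 CPM in 3D, with an interval of the log2 fold change from -0.21 to 0.14. The growth effect of HCT116 minus that of LS174T was -0.47 log2 units (adjusted p = 0.0194). TPM1 has 12876 exonic bases, and with the length trend removed its log2 fold change became 0.51 in HT29 and 0.36 in LS513 (adjusted p = 0.0252), while HCT116 had 0.09 and LS174T 0.72. The opposite strand genes TPM1-AS and AC079328.2 cover 21.4% of its exonic bases, and TPM1-AS had at most 35 counts in a library.

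The 4 lines differed in their mix of tropomyosin RNA. Exonic length is the union of all annotated exons, with 12876 bases for TPM1, 3248 for TPM2, 8389 for TPM3 and 8632 for TPM4. A longer union lowers a gene's share, and the transcripts present may be shorter, so shares compare lines better than genes. Per exonic length TPM2 made up 47.2% ± 3.0 of the 4 tropomyosin genes in HCT116 in 2D and 49.7% ± 0.6 in 3D, whereas in LS513 it made up 1.00% ± 0.12 and 1.11% ± 0.12. TPM3 and TPM4, which are widely expressed outside muscle, supplied nearly all of the tropomyosin RNA in LS513, with 45.4% ± 0.9 and 46.6% ± 1.1 in 3D. In 2D they also had the largest shares in HT29 (58.2% ± 0.4 and 25.8% ± 0.3) and LS174T (37.3% ± 0.4 and 35.6% ± 1.0). The TPM2 share went from 12.3% ± 0.04 to 20.1% ± 0.5 in HT29 and from 18.8% ± 0.5 to 26.6% ± 5.0 in LS174T, in each case without overlap. TPM4 was higher in 3D in LS513 (log2 fold change 0.32) and HCT116 (0.65) and lower in HT29 (-0.41), and its growth effect differed between lines (adjusted p = 1.44e-05).

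MYL9 (chr20:36541484-36551447, plus strand) differed between lines more than any other of the 9 genes and fell in HT29. In HT29 it had 40, 31 and 47 counts in 2D (1.37, 1.07 and 2.57 CPM) and 9, 4 and 5 counts in 3D (0.271, 0.138 and 0.181 CPM). All 3D libraries lay below all 2D libraries and near the floor of 3 counts, and the log2 fold change was -2.96 (SE 0.48, 95% interval -3.95 to -1.97, adjusted p = 4.60e-05). LS513 had 70.0 ± 12.5 CPM in 2D and 73.3 ± 13.4 CPM in 3D, with an interval of the log2 fold change from -0.38 to 0.51. HCT116 had 37.2, 31.3 and 51.4 CPM in 2D and 34.9, 34.9 and 30.2 CPM in 3D, with an interval from -0.71 to 0.19. LS174T had 2.99, 3.36 and 3.47 CPM in 2D and 1.44, 3.39 and 1.78 CPM in 3D, and its log2 fold change of -0.59 (adjusted p = 0.130) was called without LS174T 3D replicate 2 (-1.01, adjusted p = 0.0257). The HT29 growth effect differed by -3.03 log2 units from that of LS513, by -2.70 from that of HCT116 and by -2.37 from that of LS174T. The other regulatory light chains MYL12A and MYL12B carried most of the RNA of this family, and per exonic length MYL9 made up between 0.00833% and 9.35% of the 3 genes over the 24 libraries. MYL12A was higher in 3D in LS513, HCT116 and LS174T, with log2 fold changes of 0.30, 0.54 and 0.38, and averaged 0.34 (adjusted p = 6.21e-06).

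TAGLN (chr11:117199321-117204782, plus strand) was highest in LS513, with 39.3, 28.5 and 37.7 CPM in 2D and 32.7, 25.6 and 21.7 CPM in 3D, which overlapped. In HCT116 the 2D libraries had 4.29, 4.34 and 12.3 CPM and the 3D libraries 4.85, 2.25 and 2.24 CPM. The groups overlapped, the third 2D library alone lay far above the rest, and the log2 fold change was -1.16 (SE 0.40, adjusted p = 0.0324). Without HCT116 2D replicate 3 it was -0.50 (adjusted p = 0.317), and the call was also lost without HCT116 3D replicate 2 (adjusted p = 0.124) or 3D replicate 3 (adjusted p = 0.105). HT29 stood at 7.26 ± 2.36 CPM in 2D and 7.13 ± 3.53 CPM in 3D, and LS174T at 3.56 ± 0.18 and 3.44 ± 1.02 CPM. Exons of PCSK7 on the opposite strand cover 11.4% of the exonic bases of TAGLN. The paralog TAGLN2 carried most of the transgelin RNA, and it was higher in 3D in HT29 (log2 fold change 0.70, adjusted p = 0.000120) and LS174T (0.43, adjusted p = 0.0163).

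CNN1 (chr19:11538717-11550323, plus strand) had 0 counts in all 12 libraries of HT29 and LS513. HCT116 libraries had 0 to 2 counts and LS174T libraries 0 to 4, so no comparison of CNN1 was possible at this depth. CNN2 stood at 367 ± 6 CPM in HT29 in 2D and 252 ± 22 CPM in 3D, a log2 fold change of -0.55 (adjusted p = 2.15e-05), while the other lines had intervals that held 0. CNN3 had 126 ± 5 CPM in HCT116 in 2D and 163 ± 6 CPM in 3D, but 0.775 ± 0.190 and 1.04 ± 0.10 CPM in HT29, and averaged over the lines its log2 fold change was 0.52 (adjusted p = 6.36e-05).

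VCL (chr10:73995193-74121363, plus strand) had the smallest adjusted p of the 9 genes in HT29. It stood at 170, 169 and 159 CPM in 2D and at 85.2, 67.3 and 81.4 CPM in 3D. The groups were far apart, and VCL fell by 1.09 on the log2 scale (SE 0.12, adjusted p = 3.06e-07), to 0.470 times its level in 2D. In LS513 the values were 314, 323 and 302 CPM in 2D and 359, 297 and 389 CPM in 3D, and in HCT116 164, 170 and 119 CPM in 2D and 156, 191 and 174 CPM in 3D. Both overlapped, with intervals of the log2 fold change from -0.09 to 0.40 and from -0.04 to 0.44. In LS174T the 3D libraries (138, 147 and 149 CPM) lay just below the 2D libraries (170, 159 and 158 CPM), with a log2 fold change of -0.17 (adjusted p = 0.324). Between HT29 and LS513 the growth effects differed by -1.24 log2 units, between HT29 and HCT116 by -1.29 and between HT29 and LS174T by -0.92. Exons of AP3M1 on the opposite strand cover 11.1% of the exonic bases of VCL. In HT29 AP3M1 stood at 98.4 ± 2.6 CPM in 2D and 68.0 ± 3.7 CPM in 3D, and its means were lower in 3D in the other lines too. Its part in the VCL counts was not tested. VCL has 9992 exonic bases. With the length trend removed it still fell by 0.87 log2 units in HT29 (adjusted p = 6.25e-07), but the averaged value of -0.22 became -0.05 (adjusted p = 0.469) and HCT116 reached 0.34 (adjusted p = 0.0130). CTNNA1, the alpha catenin related to vinculin, was lower in HT29 (log2 fold change -0.33, adjusted p = 0.00214) and higher in LS513 (0.35, adjusted p = 0.00243). Its averaged value of 0.06 was not called, but with the length trend removed it was 0.21 and called (adjusted p = 0.00142).

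SRF (chr6:43171299-43181507, plus strand) had means between 47.5 ± 2.9 CPM in HT29 grown in 3D and 89.3 ± 3.7 CPM in LS513 grown in 2D. In HT29 the values were 56.2, 60.9 and 51.9 CPM in 2D and 45.9, 50.8 and 45.7 CPM in 3D, without overlap, with a log2 fold change of -0.25 (SE 0.08, adjusted p = 0.0185). This call was lost in 7 of the fits that left out 1 library, with adjusted p = 0.211 without HT29 2D replicate 2 at the highest. In LS513, HCT116 and LS174T the intervals of the log2 fold change were -0.20 to 0.13, -0.21 to 0.12 and -0.10 to 0.24. The interaction test gave an adjusted p of 0.215 for SRF.

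Several partners of SRF were lower in 3D on average, and in single lines they were called lower only in HT29 and LS174T. Of the 5 cofactors tested, 3 were lower in HT29 (19.6% of all genes) and 3 in LS174T (9.15%), and none was higher there. In LS513 none was called, against 23.6% of all genes. In HCT116 1 was higher (16.8% of all genes) and none lower (12.3%). ELK4, a ternary complex factor, had averaged log2 fold changes of -0.70 (adjusted p = 1.30e-05) and the coactivator MRTFB of -0.56 (adjusted p = 0.000233). MRTFA was lower in HT29, at 33.5 ± 2.5 CPM in 2D and 22.9 ± 2.3 CPM in 3D (log2 fold change -0.55, adjusted p = 0.000358), and averaged -0.17 (adjusted p = 0.0106), which with the length trend removed became -0.09 (adjusted p = 0.162). ELK4 and MRTFB remained called then, at -0.51 and -0.33. ELK3 was higher in HCT116 (39.4 ± 2.9 to 70.6 ± 3.1 CPM, log2 fold change 0.84, adjusted p = 0.000304) and lower in LS174T (-0.51, adjusted p = 0.0264), and its growth effect differed between lines (adjusted p = 0.000478). ELK1 stood between 45.1 and 71.6 CPM in the group means, with an averaged log2 fold change of -0.08 (adjusted p = 0.0838). With the length trend removed ELK1 was called as lower (-0.15, adjusted p = 0.00324). Of the 5 cofactors tested 3 were lower and none was higher in the averaged contrast, where 23.9% of all genes were lower and 26.6% higher, with a median log2 fold change of -0.17 against 0.04 over all tested genes.

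The order of the lines differed from gene to gene. In 2D, 39 of 54 comparisons of a gene between 2 lines passed the threshold, against 64.7% over all genes, and in 3D 48 of 54 did, against 65.4%. LS513 was highest for TAGLN, MYL9, TPM1, VCL and SRF, each step to the next line being called. In 2D it exceeded HCT116 by 0.81 log2 units for MYL9 and 0.36 for SRF and LS174T by 0.57 for TPM1, and HT29 minus LS513 was -2.29 for TAGLN and -0.92 for VCL. HCT116 was highest for TPM2, by 2.00 log2 units over LS174T in 2D, and lowest for TPM1, where HT29 exceeded it by 1.45. For TPM2 the order in 3D was HCT116, LS174T, HT29 and LS513, with each step called. ACTB in 2D did not differ detectably between HT29, LS513 and LS174T, with intervals within 0.30 log2 units of 0, and these exceeded HCT116 by 0.89 (HT29) and 0.81 (LS513), while HCT116 minus LS174T was -0.82. ACTG1 in 2D did not differ detectably between HT29, LS513 and HCT116, and LS174T was lowest. VCL in 2D did not differ detectably between HT29, HCT116 and LS174T, whereas in 3D HT29 was lowest, and HT29 minus LS174T was -0.89. ACTA2 did not differ detectably between HCT116 and LS174T in either condition, and in 2D HT29 minus HCT116 was -4.06 and HT29 minus LS174T -4.12 log2 units.

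Genes that act on actin upstream of the MRTFs moved in both directions. In the averaged contrast 2 of 14 were higher and 8 lower, against 26.6% and 23.9% of all genes, with a median log2 fold change of -0.25. The small GTPases RHOB and RHOC were higher, with 0.85 (adjusted p = 3.07e-09) and 0.82 (adjusted p = 7.58e-08). The protein kinase ROCK2 and the formin DIAPH3 were lower, with -0.71 (adjusted p = 7.10e-06) and -0.62 (adjusted p = 4.74e-08). RHOB stood at 20.9 ± 2.0 CPM in LS174T in 2D and at 62.8 ± 17.1 CPM in 3D, and RHOC at 114 ± 16 and 288 ± 44 CPM in HCT116.

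Among other targets of MRTF and SRF more genes were lower than higher in HT29. There 11 of the 20 tested were lower and 2 higher, against 19.6% and 21.1% of all genes, with a median log2 fold change of -0.36. LS513 had 7 higher and 1 lower, against 13.7% and 9.9% of all genes, with a median of 0.36. HCT116 had 5 higher and none lower (16.8% and 12.3% of all genes), and LS174T 3 higher and 2 lower (13.1% and 9.15%). FLNA, which encodes the actin crosslinker filamin A, was measured in HT29 at 2712 ± 436 CPM in 2D and 290 ± 42 CPM in 3D, a log2 fold change of -3.22 (adjusted p = 2.03e-11), and in LS174T the log2 fold change was -0.86 (adjusted p = 0.000400). In LS513 and HCT116 its means were 1087 ± 28 and 881 ± 87 CPM in 2D and 1123 ± 61 and 838 ± 110 CPM in 3D, and the growth effect on FLNA differed between lines (adjusted p = 3.74e-09). SMTN was lower on average (-0.29, adjusted p = 4.80e-06), a call lost with the length trend removed (-0.12, adjusted p = 0.111). FHL2 was higher, from 203 ± 4 to 414 ± 42 CPM in LS513 and with an averaged log2 fold change of 0.49 (adjusted p = 1.07e-08). FHL1 was called on average as well, but it had 0 to 6 counts in HT29 and 0 to 2 counts in LS513, and of the lines with more counts LS174T had 0.520 ± 0.171 CPM in 2D and 2.13 ± 0.63 CPM in 3D.

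Of the 9 immediate early genes driven by SRF with ternary complex factors, 7 were higher in 3D and none lower on average, against 26.6% and 23.9% of all genes, with a median log2 fold change of 1.62. In single lines 6 of 9 were higher in HT29 (21.1% of all genes) and in LS174T (13.1%) and 2 in HCT116 (16.8%). In LS513 0 of 9 passed the threshold with edgeR or with DESeq2, 1 of 9 had an unadjusted p under 0.05, and their median log2 fold change was 0.42. HT29 libraries had 15.5 to 18.0 CPM of FOS in 2D and 58.8 to 191 CPM in 3D, and LS174T libraries 7.14 to 9.87 CPM and 36.2 to 242 CPM. The 3D libraries of these groups were spread widely but did not overlap with 2D, and the averaged log2 fold change of FOS was 2.37 (adjusted p = 1.29e-06). EGR3 averaged 2.08 (adjusted p = 0.000870) with 0 to 23 counts in HT29 grown in 3D and 0 to 4 counts in LS174T grown in 2D, and without HT29 3D replicate 3 it was 1.35 (adjusted p = 0.0527).

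**Figure D4:**
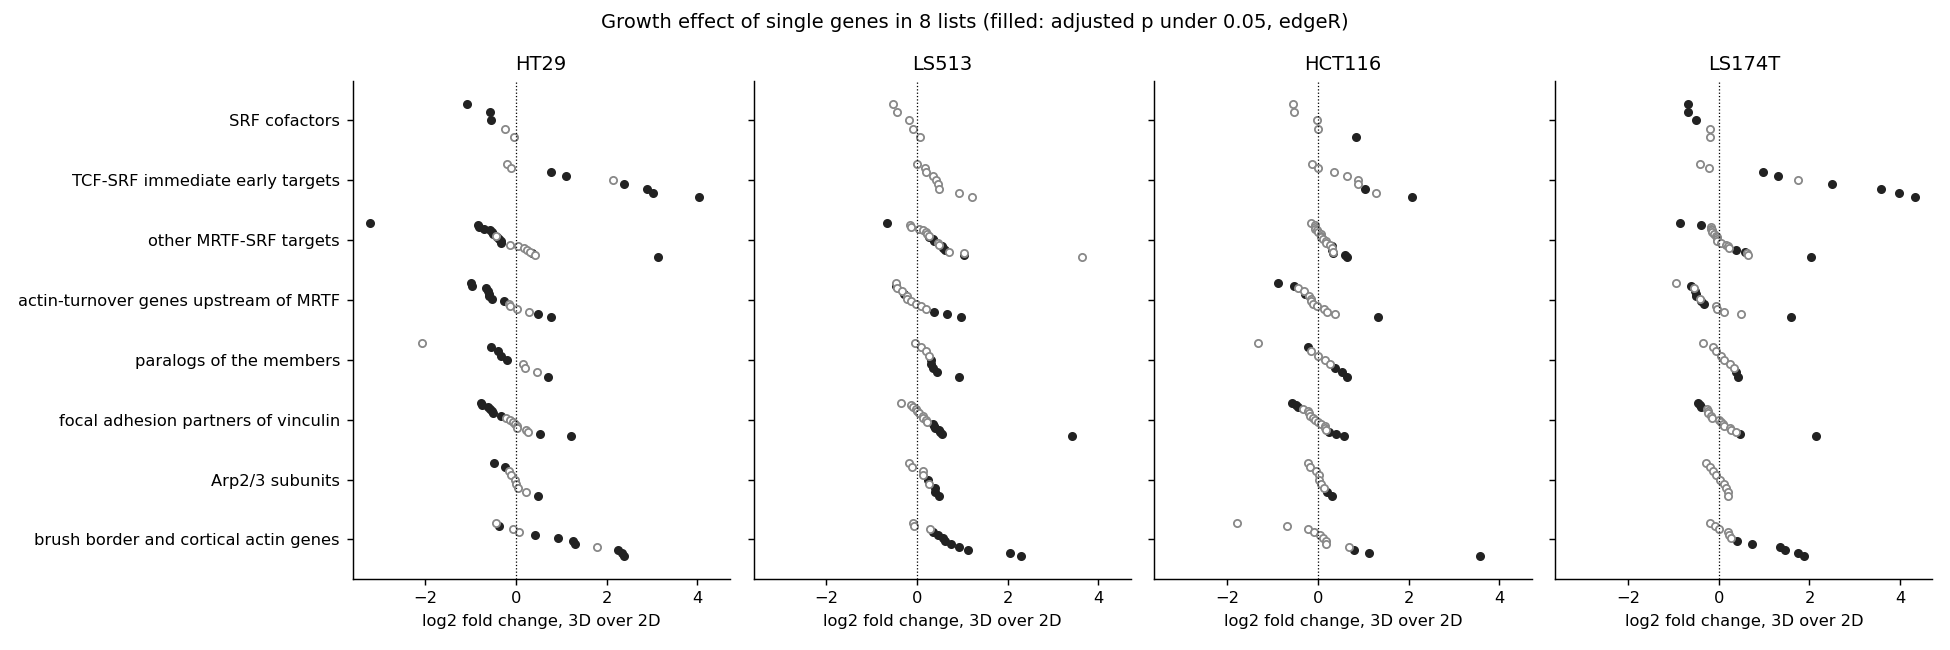
Log2 fold change of 3D over 2D (horizontal axis) for single genes of 8 lists in each line, where filled points passed an adjusted p of 0.05 and open points did not. In HT29, 11 of 20 other MRTF-SRF targets fell, while the immediate early targets lay to the right in HT29 and LS174T, with FOS at 3.03 and 4.33.

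Partners of vinculin in focal adhesions were mixed, with 5 of 17 higher and 7 lower on average, against 26.6% and 23.9% of all genes, and a median log2 fold change of -0.10. TNS1 (1.64) and ILK (0.30) were higher, and FERMT1 (-0.42) and LIMS1 (-0.31) lower. As for VCL, HT29 had more genes lower than higher (7 and 2, against 19.6% and 21.1% of all genes), and LS513 had 7 higher and none lower (13.7% and 9.9%). Of the 9 subunits of the Arp2/3 complex, which branches actin filaments, 5 were higher and 2 lower on average, where the same 26.6% and 23.9% of all genes were called, with ARPC3 at 0.28, ARPC1B at 0.26, ARPC5L at -0.13 and ACTR2 at -0.29. Of 12 genes of the brush border and cortical actin, 7 were higher (26.6% of all genes) and none lower (23.9%) on average, with a median of 0.22. Among them the microvillar myosin MYO7B reached 2.04 and the actin bundler ESPN 1.67 log2 units. In HT29 ESPN stood at 0.894 ± 0.349 CPM in 2D and 4.12 ± 0.79 CPM in 3D, and in HCT116 at 27.7 ± 4.8 and 47.9 ± 11.1 CPM. MYO7B went from 153 ± 9 to 258 ± 18 CPM in LS513, and in HCT116 it had at most 11 counts.

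The most similar other gene was found by Pearson's r of log2 CPM over the 24 libraries, which share lines and library depth, and r is given as a description. TPM1 was closest to PIP5K1B (r = 0.991), TPM2 to ADIRF (0.983), ACTA2 to OGDHL (0.985), MYL9 to EIF4E3 (0.980) and SRF to ATG16L1 (0.959). ACTB was closest to TFF1 (0.943), TAGLN to LCK (0.928) and ACTG1 to RHOD (0.928). After each line's mean was subtracted, so that growth and library differences remained, the closest genes were RPL6 for TPM2 (0.958), FRMD5 for VCL (0.927), PKM for ACTG1 (0.927), AMPD2 for SRF (0.918), CAPN2 for ACTB (0.916), CKB for TPM1 (0.903), TNC for MYL9 (0.886), RSPH14 for ACTA2 (0.833) and LINC00839 for TAGLN (0.766). Within the 9 genes TPM1 and TPM2 had r = -0.81 over the libraries and 0.81 after line means were subtracted, with HCT116 and LS513 at opposite ends for these genes while both genes were higher in 3D on average. MYL9 and VCL had r = 0.77 and ACTB and VCL 0.73 after line means were subtracted.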

How the data were processed

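Poly(A) RNA of 4 CRC lines in 2D and 3D growth was sequenced with a strand-specific kit. The authors trimmed reads with Trim Galore 0.4.1, aligned them with STAR, removed reads that aligned more than once and counted reads per Ensembl gene with HTSeq 0.5.3, and they deposited raw counts per gene in 191 files, 1 per technical replicate. The labels name hg19, whereas the paper names an Ensembl release for both the genome and the gene annotation. Of the 58243 gene identifiers 57980 are in GENCODE 29 (GRCh38), which gave symbols and positions. The strand setting of the counting is not given in the sources used here.

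Counts were summed over technical replicates into 24 libraries, in 8 groups of 3, with totals from 18723942 to 34277421 (median 30777613). Genes were filtered with filterByExpr, scaled by TMM and tested with the quasi-likelihood test of edgeR 4.0.16 in R 4.3.3, in 1 fit with a coefficient per group. Adjusted p-values are Benjamini-Hochberg values over all 19387 tested genes, with a threshold of 0.05, and intervals are 95% intervals. The averaged contrast is the mean of the 4 log2 fold changes of 3D over 2D, and the interaction test asks whether they differ between lines. Shares of gene families used counts per exonic length, the union of all annotated exons of a gene, which can exceed the length of the transcripts present. The fit was tested on simulated data with the same spread for every gene and with changes only in genes of higher counts in HT29. That test does not cover genes with few counts there, such as MYL9 and ACTA2. Each library was left out in turn, and the alternatives were DESeq2 1.42.0 as the test, its size factors in edgeR, a filter that kept every gene with 1 count or more, a replicate block, each line fitted alone and counts without technical replicate d, which 1 library lacks. A fit without LS174T 3D replicate 2 and HCT116 2D replicate 3 and a fit with the trend on exonic length removed were added after the data were seen.

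The 10 genes, their paralogs and the other gene lists were chosen with earlier results of these data known. Named outside the 10 are their paralogs, the SRF cofactors, the highest and lowest 2 called genes of each list in the averaged contrast, and the gene with the highest correlation, 1 of which is not reported here.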

Additional observations from a re-analysis of the deposited data

Results flagged for a closer look

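The effect of 3D growth differed between the 4 lines for 21 of the 43 named genes that were tested. The interaction test of edgeR was adjusted over all genes and called 17.1% of them. Of the 43 genes, 20 had been named for a called averaged growth effect in these same data. The share among the named genes therefore cannot be set against that of all genes. Among the cytoskeleton genes the adjusted p was 6.81e-05 for ACTB, 0.000383 for ACTG1, 0.00193 for MYL9, 0.0396 for TPM1 and 1.2e-05 for VCL. For ACTB and ACTG1 HT29 and LS513 moved in opposite directions, and for VCL and MYL9 HT29 alone passed the threshold and differed from each other line. Among the paralogs it was 0.0357 for TAGLN2, 0.00833 for CNN2, 1.44e-05 for TPM4 and 0.000844 for CTNNA1. Among the SRF cofactors it was 0.0199 for MRTFA and 0.000478 for ELK3. Of the 20 genes named from the other lists 10 passed, with 3.74e-09 for FLNA, 5.58e-05 for FHL2, 0.00589 for FHL1, 0.000657 for SMTN, 0.000964 for RHOB and 0.0323 for RHOC. It was 0.0103 for FOS, 2.87e-05 for TNS1, 0.000611 for MYO7B and 0.0143 for ESPN.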

How the results depend on the processing

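Of 139 results, 93 kept their direction and their side of the threshold under all 8 alternatives and 103 when each of the 24 libraries was left out in turn. Among the counts of calls, 12 of 17 stayed within 1.5 times their value under the alternatives and 15 when a library was left out. The replicate block lowered the calls in HT29 from 7 to 4 and those between pairs of lines from 14 to 7. In HT29 only the replicate numbers 1 and 3 occur in both growth conditions. HT29 libraries without a partner add nothing to the growth effect in that fit. Same-numbered samples had correlations of deviations between -0.146 and 0.0938. The labels do not say whether these samples were paired, and the correlations cannot decide it. Without the 2 libraries with the lowest long genes, LS174T 3D replicate 2 and HCT116 2D replicate 3, the calls in LS513 rose from 2 to 4. With each line fitted alone the calls in HCT116 fell from 2 to 1. With all genes of at least 1 count the calls among the Arp2/3 subunits fell from 7 to 4. Leaving out 1 library gave 1 to 3 calls in HCT116, with 1 without 3D replicate 2, 3D replicate 3 or 2D replicate 2, and 2 to 4 in LS174T, with 2 without 2D replicate 2. The cause of these shifts was not tested.

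A direction turned for 9 results, of which 1 was a call. TPM3 averaged -0.11 and 0.0244 with the length trend removed. The averaged ELK3 value of -0.02 became 0.0016 with the replicate block and 0.0234 without both libraries, and lay between -0.0599 and 0.0380 when 1 library was left out. TAGLN in HT29 (-0.01) became 0.0244 with size factors, 0.0306 with all genes, 0.0132 with DESeq2, 0.00083 without technical replicate d and 0.0261 without both libraries, and lay between -0.44 and 0.23 when 1 library was left out. TPM1 in HCT116 (-0.04) became 0.0301 without both libraries and 0.0914 with the length trend removed, and lay between -0.0951 and 0.0297 when 1 library was left out. VCL in LS174T (-0.17) became 0.0569 with the length trend removed. When 1 library was left out, ACTA2 in HT29 lay between -0.45 and 0.86, ACTB in LS174T between -0.17 and 0.0245, MYL9 in LS513 between -0.0882 and 0.22 and TAGLN in LS174T between -0.30 and 0.11.

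Several calls lay near the threshold. The averaged ACTB call was lost in 13 of 24 fits that left out 1 library, the interaction call of TPM1 in 11 and that of RHOC in 10. With the length trend removed the interaction call of TPM1 was lost (adjusted p = 0.0544). ILK and ARPC1B passed the interaction test then (adjusted p = 0.00859 and 0.0295). With the replicate block the HT29 calls of ACTG1, TPM1 and SRF were lost (adjusted p = 0.128, 0.167 and 0.321), as were the averaged call of ACTB (0.168) and the interaction calls of TPM1, CNN2, MRTFA, TAGLN2, RHOC, FHL1 and ESPN (0.167, 0.123, 0.161, 0.0798, 0.0630, 0.0594 and 0.0808). With each line fitted alone TAGLN in HCT116 had an adjusted p of 0.108 and ACTG1 in LS174T of 0.131. At 2 to 21 counts per library the growth effect on ACTA2 was imprecise, with standard errors of 0.51 log2 units in HT29 and 0.60 in LS513, and CNN1 was not tested.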
